A study of Mus musculus with 12 samples.

Results

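The genes described here are 44 genes of the cell cycle and of DNA replication, taken from the table by their symbols. Of the 44, 43 had a row in the table of 15855 genes, while Ccne1 had none and was not analysed here. Of the 43, 40 passed the filter on low counts and were among the 14462 genes tested; Gins2, Foxm1 and Cdk1 did not pass it. RNA was sequenced from viable EpCAM+ epithelial cells of the whole small intestine, sorted from male C57BL6/J mice of 8 to 12 weeks. EpCAM is an adhesion molecule on the surface of epithelia. The mice were sampled 24 h after surgery. In permanent occlusion of the middle cerebral artery (pMCAO) a filament blocks a main artery of the brain for good, and in sham surgery the artery was exposed but not occluded. Both groups had the same ketamine and xylazine anaesthesia. The labels gave 7 sham-operated and 5 post-stroke samples, each a biological replicate. The question of the comparison was whether proliferation genes of the gut epithelium differed after stroke.

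The small intestine renews its epithelium from crypts. Stem cells at the crypt base give rise to transit-amplifying cells, which divide a few times and then stop as they move onto the villus. Before S phase, licensing factors load the MCM helicase onto origins of replication. In S phase the sliding clamp and the enzymes that supply nucleotides are needed, and in G2 and mitosis cyclins A and B, mitotic kinases, spindle motors and centromere proteins take over. Most villus cells are outside the cell cycle, so transcripts of these genes are known to come from a minority of the cells of such a sort. In bulk RNA of this kind, fewer cycling cells and less of each RNA per cell cannot be told apart.

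The 44 genes were grouped by role. The S-phase roles were 16 genes for licensing and the helicase (Mcm2 to Mcm7, Cdc6, Cdt1, Gins2), and for the clamp, nucleotide supply and chromatin copying (Pcna, Tyms, Rrm1, Rrm2, Tk1, Hells, Uhrf1). The mitosis roles were 21 genes for mitotic cyclins, kinases and the spindle checkpoint (Cdk1, Ccna2, Ccnb1, Ccnb2, Bub1, Bub1b, Aurka, Aurkb, Plk1, Birc5), for partners of the anaphase-promoting complex (Cdc20, Ube2c), and for chromosome, centromere and spindle proteins (Mki67, Top2a, Cenpa, Cenpe, Cenpf, Kif11, Kif20a, Tpx2, Stmn1). The G1 and G1/S cyclins Ccnd1, Ccnd2, Ccne1 and Ccne2 and the transcription factors Myc, Mybl2 and Foxm1 made up the rest.

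S-phase and mitosis genes are known to differ in their promoters. E2F factors bind elements such as TTTGGCGC and TTTCCCGC in genes of G1/S, and many G2/M genes carry a CCAAT box together with a cell cycle homology region (CHR, TTTGAA), to which complexes with B-Myb and FoxM1 or the repressive DREAM complex are recruited. Promoter sequences were taken from RefSeq (GRCm38.p6) and matched 32 of the 44 genes, with 34 promoters in all; the 250 bases before the transcription start were searched on both strands. The following promoters are examples of mitosis genes with both a CCAAT box and a CHR, and of E2F-type S-phase genes. Of the 16 promoters of mitosis genes, 7 held both a CCAAT box and a CHR. Mcm2 and Uhrf1, the members with the smallest p-values in the stroke comparison, are shown as well. Capitals mark every CCAAT box, every CHR and every one of these E2F elements, on either strand. Each sequence runs 5′ to 3′ on the strand of the gene and ends at the base before the start.

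Cdc20, GRCm38.p6, chr4:118437344-118437593, minus strand: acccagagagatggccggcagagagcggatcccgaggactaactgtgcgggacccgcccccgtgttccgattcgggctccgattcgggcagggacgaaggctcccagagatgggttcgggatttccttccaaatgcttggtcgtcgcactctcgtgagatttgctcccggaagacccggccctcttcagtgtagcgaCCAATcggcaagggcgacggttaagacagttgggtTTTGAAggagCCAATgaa
Ube2c, GRCm38.p6, chr2:164769679-164769928, plus strand: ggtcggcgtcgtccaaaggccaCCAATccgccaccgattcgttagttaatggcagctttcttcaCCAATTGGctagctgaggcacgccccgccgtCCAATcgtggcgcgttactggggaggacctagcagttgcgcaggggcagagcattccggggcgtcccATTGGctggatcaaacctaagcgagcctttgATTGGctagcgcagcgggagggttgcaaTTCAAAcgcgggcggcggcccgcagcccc
Mki67, GRCm38.p6, chr7:135716380-135716629, minus strand: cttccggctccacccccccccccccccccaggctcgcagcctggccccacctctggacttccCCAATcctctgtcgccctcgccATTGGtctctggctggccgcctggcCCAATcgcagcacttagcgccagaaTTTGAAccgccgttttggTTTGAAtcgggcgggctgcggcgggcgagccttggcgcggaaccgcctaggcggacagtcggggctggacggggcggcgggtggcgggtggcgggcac
Mcm6, GRCm38.p6, chr1:128359706-128359955, minus strand: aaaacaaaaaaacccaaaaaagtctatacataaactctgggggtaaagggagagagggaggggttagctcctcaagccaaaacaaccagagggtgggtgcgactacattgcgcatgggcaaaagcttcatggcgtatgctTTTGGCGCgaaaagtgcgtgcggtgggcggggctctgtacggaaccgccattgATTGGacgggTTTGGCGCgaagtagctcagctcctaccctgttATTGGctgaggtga
Mcm5, GRCm38.p6, chr8:75109259-75109508, plus strand: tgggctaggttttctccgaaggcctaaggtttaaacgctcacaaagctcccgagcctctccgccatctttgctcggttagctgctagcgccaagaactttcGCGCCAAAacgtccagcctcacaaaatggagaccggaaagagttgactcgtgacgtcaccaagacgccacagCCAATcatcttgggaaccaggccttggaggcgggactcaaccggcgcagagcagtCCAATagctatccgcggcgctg
Mcm2, GRCm38.p6, chr6:88898781-88899030, minus strand: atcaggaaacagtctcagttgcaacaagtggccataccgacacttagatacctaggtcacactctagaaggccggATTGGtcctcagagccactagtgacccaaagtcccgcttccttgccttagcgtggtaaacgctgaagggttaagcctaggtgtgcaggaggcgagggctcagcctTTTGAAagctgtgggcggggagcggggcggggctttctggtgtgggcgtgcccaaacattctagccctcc
Uhrf1, GRCm38.p6, chr17:56303087-56303336, plus strand: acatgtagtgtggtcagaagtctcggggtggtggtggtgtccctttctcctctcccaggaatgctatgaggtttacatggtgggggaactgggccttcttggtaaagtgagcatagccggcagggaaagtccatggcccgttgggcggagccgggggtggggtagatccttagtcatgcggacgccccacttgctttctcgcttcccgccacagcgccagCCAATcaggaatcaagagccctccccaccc

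In the Cdc20 promoter a TTTGAA began 18 bases before the start, with a CCAAT beginning 53 bases before it. The Ube2c promoter held 6 CCAAT boxes counted on both strands, of which a forward and a reverse one overlapped within CCAATTGG, and 1 TTTGAA on the reverse strand. In the Mki67 promoter TTTGAA occurred at 116 and 98 bases. Mcm6 had TTTGGCGC at 110 and 47 bases before its start, and Mcm5 had it on the reverse strand at 149 bases. Uhrf1 had another promoter, at chr17:56304063-56304312 and not shown above, with CCAAT boxes at 150 and 107 bases. The 16 promoters of S-phase genes belonged to 14 genes, because Uhrf1 and Mcm7 each had more than 1. A CCAAT box was found in 15 of the 16 promoters of mitosis genes and in 11 of the 16 promoters of S-phase genes, against 33.8% of all 32851 promoters. TTTGAA was found in 7 of 16 mitosis promoters and in 1 of 16 S-phase promoters, that of Mcm2, against 16.0% of all. The 2 E2F elements were found in 5 of 16 S-phase promoters, those of Mcm5, Mcm6, Mcm7, Cdc6 and Hells, and in 0 of 16 mitosis promoters, against 1.30% of all. CCAAT and TTTGAA occurred together in 7 of 16 mitosis promoters, against 5.55% of all. These matches describe letters only and were not tested for binding.

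The depth was 7418730 to 31925579 counts per sample, with a mean of 13442600 ± 7130290 for the sham group (SD, n = 7) and of 22184000 ± 8722520 for the pMCAO group (SD, n = 5). By the library numbers in the titles the samples formed 4 library sets. The boundaries between the sets are not in the labels; they were placed in an earlier analysis of these data by matching the numbers to the log2 column deposited with the counts, so the sets are not independent of that comparison. Set 1 (libraries 58 to 61) held sham replicates 1, 2 and 3 and pMCAO replicate 1, set 2 (62 to 65) held sham replicates 4 and 5 and pMCAO replicates 2 and 3, set 3 (66 to 68) held sham replicate 6 and pMCAO replicates 4 and 5, and library 72, sham replicate 7, stood alone as set 4. The 4 libraries of set 1 stood apart. They had 13386 to 14712 genes detected against 15343 to 15766 in the other 8, and 34.8 to 54.5% of their counts on mitochondrial ribosomal RNA against 14.6 to 35.2%. A floor of 3 counts corresponded to 0.0692 to 0.724 CPM, depending on the sample, and covers counting error only. Epcam itself was measured at 883 to 2533 CPM over the 12 samples.

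Levels are given as CPM, a count relative to the library's total, scaled with TMM factors, which correct for differences in RNA composition between libraries. Cell cycle RNA was sparse in this sort. The mean level over the 12 samples was below 5 CPM for 26 of the 43 genes, below 10 CPM for 37, and above 20 CPM for 2, Mki67 and Ccnd2. A count of 0 in at least 1 library was found for 18 of the 43. Per kilobase of exon, the highest mean levels were those of the sliding clamp Pcna (6.87 CPM per kb), the mitotic kinase Plk1 (4.77), cyclin D2 (Ccnd2, 4.65), cyclin E2 (Ccne2, 4.19) and cyclin B2 (Ccnb2, 3.87). The lowest were the cyclin-dependent kinase Cdk1 (0.111), the GINS subunit Gins2 (0.133) and Foxm1 (0.168).

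**Figure D1:**
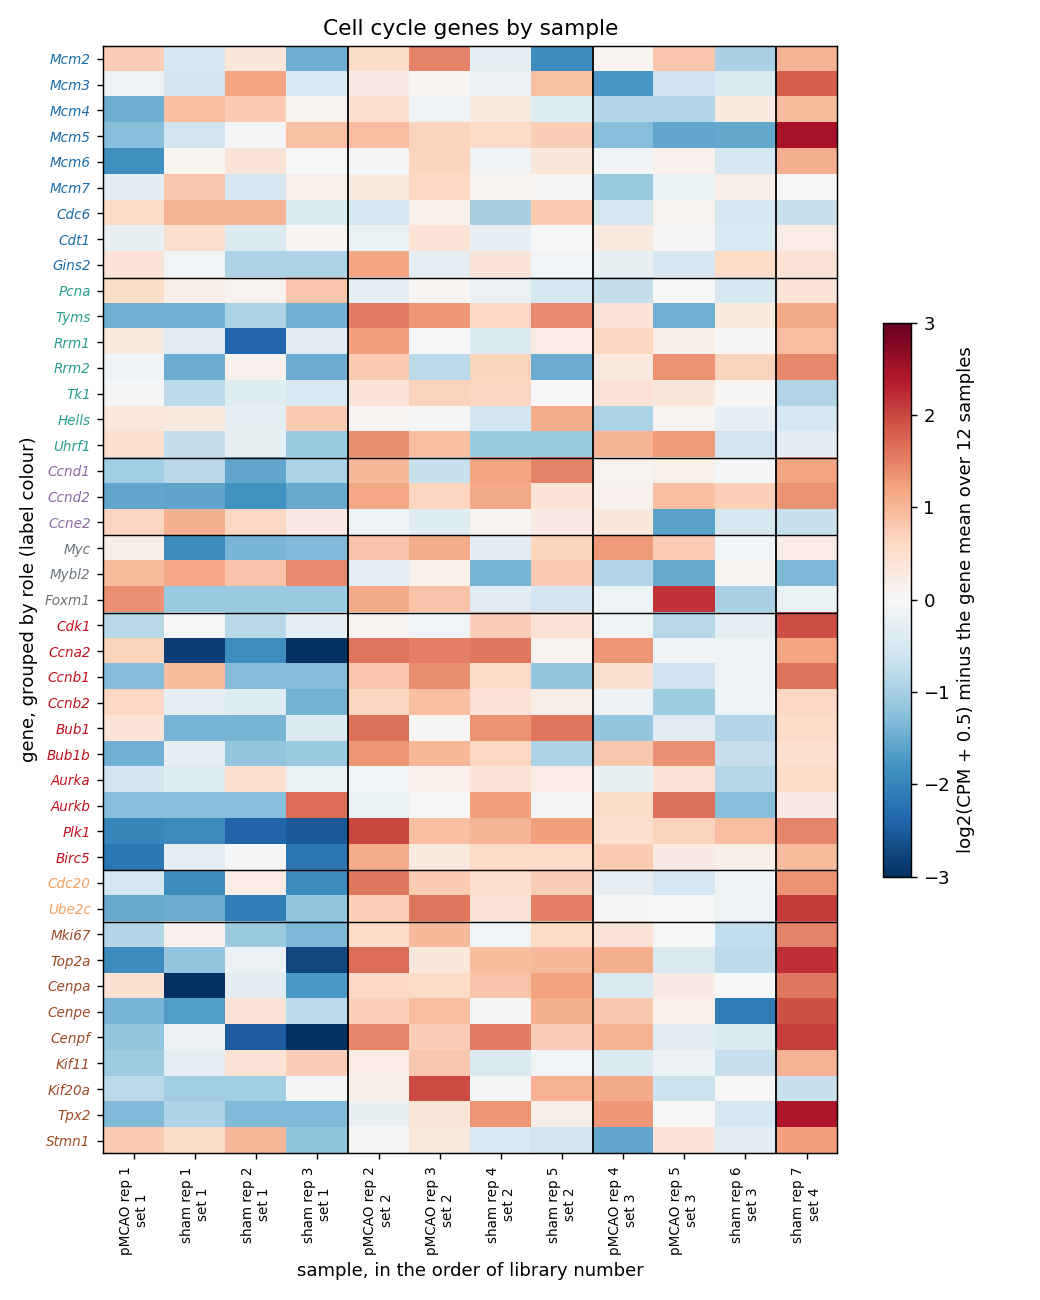
Level of each of the 43 genes in each of the 12 samples, as log2(CPM + 0.5) minus the gene's mean over the samples (colour), with genes grouped by role in rows and samples in the order of their library numbers in columns; vertical lines part the library sets. Blue fills most mitosis rows in the 4 samples of set 1, and sham replicate 7, the only sample of set 4, is red in most of them.

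The first comparison asked whether the levels differed between post-stroke and sham-operated mice. None of the 40 genes tested was called differentially expressed in limma-voom. The largest differences were those of Uhrf1, Mcm2 and Bub1b, all higher in pMCAO, and the filtered gene Foxm1 was also higher in pMCAO. Uhrf1 passed the filter on low counts only through its pMCAO samples. Of the 40 fold changes 29 were above 0 and 11 below.

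In the fit with group and library set (limma-voom; a call needed a log2 fold change of 1 or more in either direction with a Benjamini-Hochberg adjusted p up to 0.05), 0 of 40 genes were called, against 0.325% of all genes tested, and the smallest adjusted p was 0.0540. At an unadjusted p under 0.05, 5 of 40 were higher in pMCAO (Uhrf1, Mcm2, Bub1b, Myc and Ccna2), against 6.58% of all genes, and 0 were lower, against 6.17%. With group alone in the fit, 0 of 40 were called, against 0% of all genes; 6 were higher at an unadjusted p under 0.05, against 4.66%, and 0 were lower, against 3.77%. Fold changes above 0 were found for 29 of 40, against 51.3% of all genes. Their median log2 fold change was 0.23 beside 0.01 over all genes tested, and 0.27 beside 0.06 with group alone. DESeq2 called 1 of the 40, Uhrf1, beside 115 of all 14462 genes. The quasi-likelihood test of edgeR called 0 of the 40, beside 21 of all 14462.

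By role, the fold changes were above 0 for 19 of the 20 mitosis genes tested, with a median log2 fold change of 0.29, and for 8 of the 15 S-phase genes, with a median of 0.01, beside the 51.3% above 0 over all genes. The exception among the mitosis genes was Bub1 (log2 fold change -0.25). The count for the mitosis genes rested in part on values near 0. Of the 19 genes, 11 were below 0 in at least 1 alternative fit, among them Tpx2, Plk1, Birc5, Ube2c, Cenpa, Top2a, Aurkb and Ccnb1, and 8 were above 0 in every one. Without sham replicate 6, 13 of the 19 mitosis genes then tested were above 0. The summed level of the 21 mitosis genes ranged from 34.0 to 269 CPM in sham (median 63.8) and was 50.2, 183, 167, 124 and 88.4 CPM in pMCAO replicates 1 to 5. The highest sum was that of sham replicate 7, alone in set 4, and the pMCAO range lay within the sham range over all sets. Within set 2 the sums were 131 and 146 CPM in sham and 183 and 167 CPM in pMCAO. In set 3 they were 63.8 CPM in sham and 124 and 88.4 CPM in pMCAO. In set 1 they were 59.6, 51.8 and 34.0 CPM in sham and 50.2 CPM in pMCAO. The differences of the mean log2 CPM of the 21 genes within sets 1, 2 and 3 were 0.21, 0.26 and 0.72. The summed level of the 16 S-phase genes ranged from 53.7 to 96.3 CPM in sham and from 51.9 to 84.9 CPM in pMCAO.

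**Figure D2:**
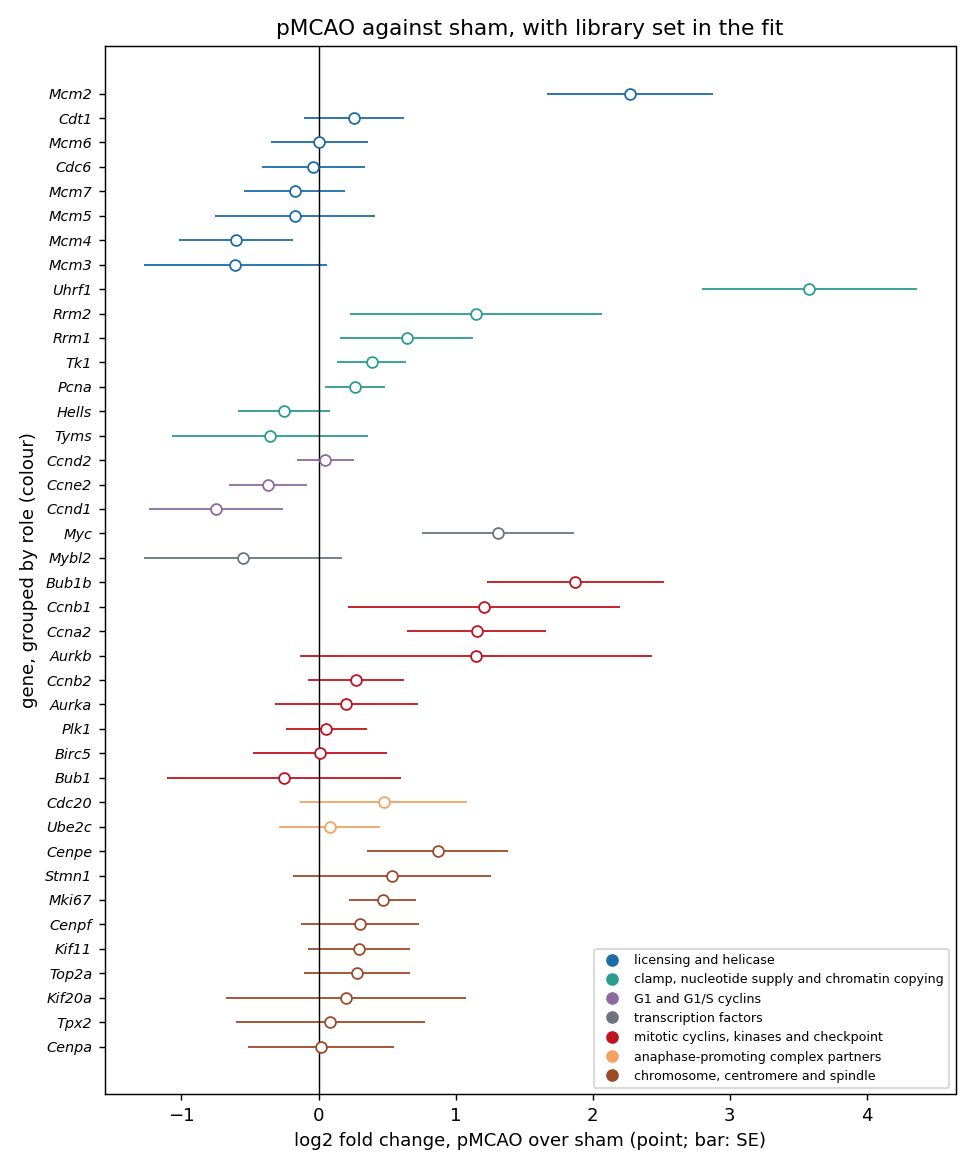
Log2 fold change of pMCAO over sham for the 40 genes tested (x axis; points, with bars for the SE of the limma-voom fit with library set), with genes in rows coloured by role. Uhrf1 at 3.58 and Mcm2 at 2.27 lie farthest to the right, the other points lie between -0.75 and 1.87, and no point is filled because no gene was called.

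Uhrf1 binds hemimethylated DNA behind the replication fork and recruits the maintenance methyltransferase Dnmt1. In the sham samples its level was between 0 and 0.415 CPM, with a median of 0.159 CPM, and 3 of the 7 libraries had no count. In pMCAO replicates 1 to 5 it was 1.03, 2.34, 1.52, 1.68 and 2.11 CPM. Every pMCAO sample lay above every sham sample, although the highest sham count was 9 and the lowest pMCAO count was 12. The means were 0.167 ± 0.177 (SD, n = 7) and 1.74 ± 0.514 CPM (SD, n = 5). In limma-voom the log2 fold change was 3.58 (SE 0.78, unadjusted p = 0.000303), and the adjusted p of 0.0540 missed the threshold. In DESeq2 the adjusted p was 0.00914 at a log2 fold change of 3.95, and over the alternatives the adjusted p ranged from 0.00914 to 0.402 and the log2 fold change from 3.16 to 4.36. The differences of the mean log2 CPM within sets 1, 2 and 3 were 2.24, 4.29 and 2.58. A processed pseudogene, Gm5648, matches 44.3% of the longest Uhrf1 transcript at near identity. How far this match affects the Uhrf1 counts was not tested. The gene lies at chr17:56303321-56323486 on the plus strand.

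Of the 40 genes tested, Uhrf1 was the 1 gene whose groups did not overlap upwards, against 0.311% of all genes, and 0 did so downwards, against 0.194%. Uhrf1 passed the filter on low counts only through its pMCAO samples, as its sham counts were 0 to 9. Its place among the genes tested and the order of its groups are therefore not independent, and the order is a description only. Foxm1 showed the same order outside the genes tested. Foxm1 is a transcription factor of G2/M genes. Its counts were 0, 0, 0, 3, 4, 2 and 6 in sham replicates 1 to 7 and 27, 80, 63, 6 and 116 in pMCAO replicates 1 to 5. The sham levels were thus 0 to 0.437 CPM (mean 0.156 ± 0.189, SD, n = 7) and the pMCAO levels 2.31, 1.87, 1.45, 0.480 and 4.38 CPM (mean 2.10 ± 1.44, SD, n = 5). The margin between the groups was small, because pMCAO replicate 4 had 6 counts, as many as sham replicate 7 had. Foxm1 did not pass the filter on low counts; without any filter its log2 fold change in limma-voom was 3.75 with an adjusted p of 0.0893. Exons of other annotated genes overlap Foxm1 on the same strand.

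Mcm2 is a subunit of the hexameric helicase that licenses origins. The level in sham ranged from 0.231 to 5.03 CPM with a median of 1.43 CPM. In pMCAO replicates 1 to 5 it was 4.02, 3.48, 7.10, 2.32 and 4.34 CPM. The groups overlapped through sham replicate 7, at 5.03 CPM, and sham replicate 2, at 2.90 CPM. The log2 fold change was 2.27 (SE 0.61, unadjusted p = 0.00169, adjusted p = 0.120 in limma-voom), and the adjusted p ranged from 0.0532 to 0.453 over the alternatives. Within sets 1, 2 and 3 the differences were 1.57, 2.70 and 1.75. The other 5 subunits of the ring had log2 fold changes between -0.61 (Mcm3) and 0.01 (Mcm6), and 0 of these 5 had an unadjusted p under 0.05. Whether Mcm2 differed from them was not tested. The levels of Mcm5, for example, were 0.0512 to 8.38 CPM in sham and 0.171, 2.50, 2.03, 0.160 and 0.0377 CPM in pMCAO, with a log2 fold change of -0.17 (SE 0.58), whose sign turned when library set 1 was left out (0.15).

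Bub1b encodes BubR1, a kinase-like protein of the spindle checkpoint. Its level in sham was 0.207 to 1.98 CPM (median 0.487). It was 0.0854 CPM in pMCAO replicate 1 and 3.53, 2.67, 2.32 and 3.66 CPM in replicates 2 to 5. The pMCAO sample of set 1 had 1 count, as had sham replicates 2 and 3, under the floor of 3 counts. Its order relative to these sham samples is thus not resolved. The other 4 pMCAO samples lay above all sham samples. Its log2 fold change was 1.87 (SE 0.64) in limma-voom, with an adjusted p of 0.223, and it was 1.14 in edgeR and 0.96 in limma-trend. Within sets 1, 2 and 3 the differences were -1.29, 1.72 and 2.36.

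Myc, a growth-promoting transcription factor and target of Wnt signalling in crypts, had levels of 0 to 2.49 CPM in sham (median 0.988) and of 1.62, 2.88, 3.53, 4.00 and 2.68 CPM in pMCAO. The ranges overlapped only through pMCAO replicate 1, which lay between sham samples. Its log2 fold change was 1.31 (SE 0.55, unadjusted p = 0.0305, adjusted p = 0.331) and became 2.01 with group alone. It was above 0 within each of the 3 sets, at 2.97, 0.97 and 1.32.

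Ccna2, cyclin A2, which acts in S phase and G2, had levels of 0 to 11.7 CPM in sham (median 3.20) and of 5.98, 11.9, 11.2, 9.76 and 3.32 CPM in pMCAO. The spread in sham followed the library sets, with 0.0796, 0.622 and 0 CPM in the 3 sham samples of set 1 and 3.20 to 11.7 CPM in the other 4. The log2 fold change was 1.16 (SE 0.51, unadjusted p = 0.0363, adjusted p = 0.349), and it was 1.98 with group alone. Exons of Exosc9 overlap Ccna2 on the opposite strand, and the strand setting of the counting was not given in the sources used here.

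**Figure D3:**
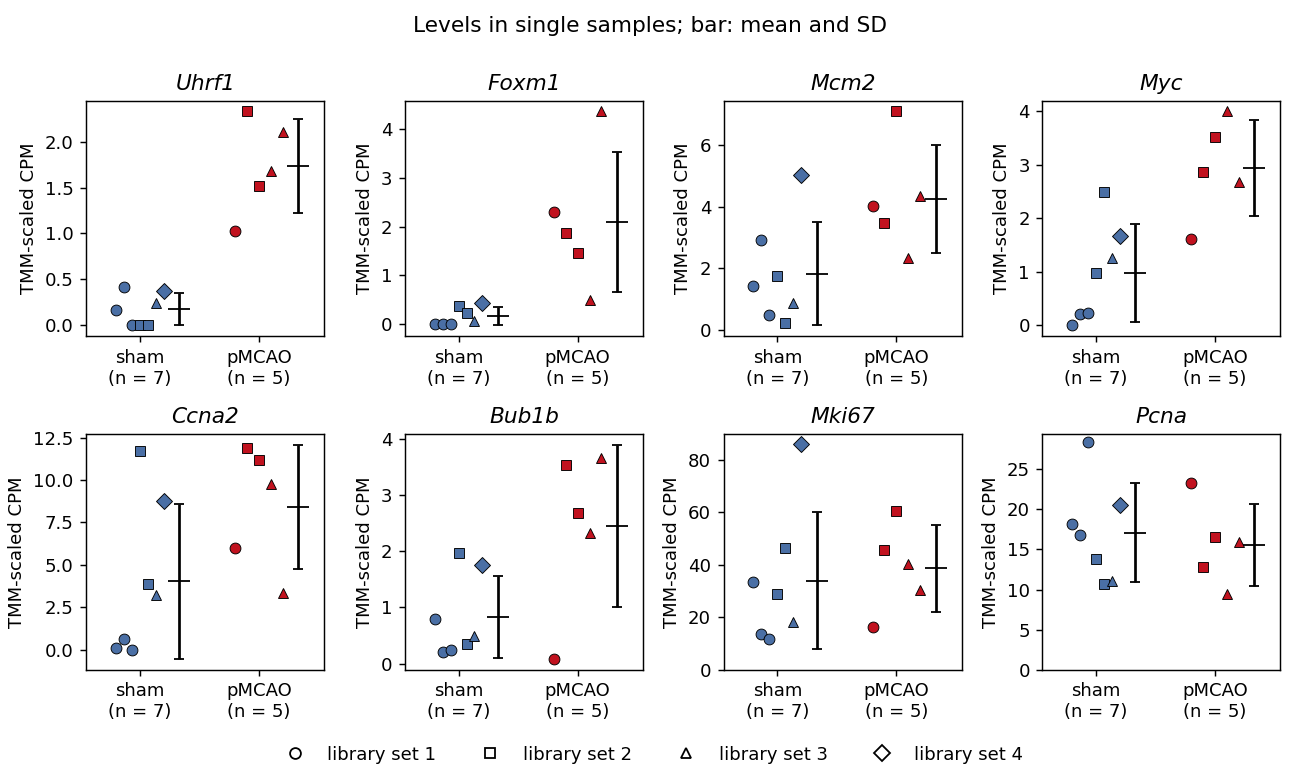
TMM-scaled CPM (y axis) of 8 genes in the 7 sham samples (blue) and the 5 pMCAO samples (red); symbols give the library set, and the bar beside each group is the mean with the SD. The 5 pMCAO samples lie above all sham samples for Uhrf1 and Foxm1 and overlap them for the other 6 genes; the axes differ between panels.

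The antigen most used to mark dividing cells, Mki67, had the highest level of the mitosis genes. It was 11.6 to 86.0 CPM in sham (median 28.8) and 16.3, 45.6, 60.6, 40.2 and 30.4 CPM in pMCAO replicates 1 to 5. The groups overlapped, and the highest value was again that of sham replicate 7. The log2 fold change was 0.47 (SE 0.24, unadjusted p = 0.0707, adjusted p = 0.438), and within sets 1, 2 and 3 the differences were -0.10, 0.53 and 0.95. Top2a, the topoisomerase that untangles chromosomes before mitosis, had levels of 0.965 to 44.1 CPM in sham (median 8.09) and of 2.14, 30.5, 11.9, 20.2 and 6.68 CPM in pMCAO, with a log2 fold change of 0.28 (SE 0.39). For the centromere motor Cenpe the log2 fold change was 0.87 (SE 0.51, unadjusted p = 0.109, adjusted p = 0.511), with 0.589 to 17.0 CPM in sham and 1.28 to 8.30 CPM in pMCAO.

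Of the 7 genes of the clamp, nucleotide supply and chromatin copying, 5 were higher in pMCAO within each of the 3 sets that held both groups (Pcna, Rrm1, Rrm2, Tk1 and Uhrf1). Over all genes tested the share was 17.2%. Set 1 held only 1 pMCAO sample and set 3 only 1 sham sample. Some log2 differences were small, such as 0.17, 0.26 and 0.14 for Pcna in sets 1, 2 and 3 and 0.12 for Rrm2 in set 3. Pcna, the most abundant member per length, had levels of 10.7 to 28.5 CPM in sham (median 16.8) and of 23.2, 12.8, 16.5, 9.44 and 16.0 CPM in pMCAO. Its groups overlapped and the log2 fold change was 0.27 (SE 0.22). Pseudogene copies match 51.4% of the longest Pcna transcript. Tk1, the thymidine kinase of the salvage pathway, had levels of 3.28 to 10.5 CPM in sham and of 6.41, 8.70, 10.9, 8.96 and 8.41 CPM in pMCAO, with a log2 fold change of 0.39 (SE 0.25, unadjusted p = 0.141, adjusted p = 0.559). Rrm2, the small subunit of ribonucleotide reductase, had a log2 fold change of 1.15 (SE 0.92), with 0 to 3.28 CPM in sham and 0.300 to 3.06 CPM in pMCAO.

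Over all roles, 10 of the 40 genes were higher in pMCAO within each of the 3 sets, against 17.2% of all genes, and 1 (Mcm3) was lower in each, against 13.2%. The 10 were the 5 above with Mcm2, Myc, Ccna2, Ube2c and Kif20a. Among the remaining genes fixed by role, cyclin D1 (Ccnd1) had the lowest log2 fold change of the 40, -0.75 (SE 0.49), with 0.622 to 8.85 CPM in sham and 1.11 to 5.98 CPM in pMCAO. Cyclin B1 (Ccnb1) had a log2 fold change of 1.21 (SE 0.99), with 0 to 3.35 CPM in sham and 0 to 2.77 CPM in pMCAO. Its direction turned when sham replicate 5 was left out (-0.16), and with other single samples left out the value reached 1.99. Cdc20, the activator of the anaphase-promoting complex, had one of 0.48 (SE 0.61), with 0 to 4.15 CPM in sham and 0.769 to 5.00 CPM in pMCAO.

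Markers of other cells were measured in the same libraries. Of 8 T lymphocyte markers, 3 (Cd3g, Cd8a and Gzma) had an unadjusted p under 0.05, all higher in pMCAO, and their summed level ranged from 28.7 to 617 CPM in sham and from 58.2 to 410 CPM in pMCAO. Cd3e was at 0 in 2 of the 12 libraries. Of 8 goblet cell markers, 5 had an unadjusted p under 0.05, all higher, and of 10 enterocyte markers 4 did, all higher. Of 9 crypt stem cell markers in the table, 0 did, with a median log2 fold change of -0.04. Over all genes tested, 6.58% were higher at this threshold. In limma-voom 0 markers of these 4 lists were called. The smallest adjusted p was 0.167 for the T lymphocyte, 0.211 for the goblet cell and 0.0337 for the enterocyte markers. The part of these cells in the values of the cell cycle genes was not tested.

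The cell cycle pathway was described further by 149 other genes, of which 139 had a row and 131 were tested. Of these, 0 were called, against 0.325% of all genes tested. At an unadjusted p under 0.05 in limma-voom, 9 were higher and 6 lower, against 6.58% and 6.17% of all genes. These shares were near those of all genes, and the counts by list below are small. The median log2 fold change of the 131 was 0.04, beside 0.01 over all genes. By list, the origin recognition, polymerase and fork genes had 3 of 37 higher and 1 lower, the E2F and Rb family 1 of 15 higher and 1 lower, and the CDK inhibitors 1 of 6 higher (Cdkn2b) and 0 lower. The other kinases and checkpoint genes had 1 of 15 higher (Cdk4) and 1 lower (Wee1), the kinetochore, spindle and cytokinesis genes 3 of 35 higher and 2 lower, and the condensin, cohesin and anaphase-promoting complex genes 0 of 23 higher and 1 lower (Ncapg2).

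Wee1, the kinase that holds Cdk1 inactive before mitosis, had the smallest p of these 131. It was 2.40 to 15.3 CPM in sham and 1.62, 0.678, 4.77, 1.36 and 2.75 CPM in pMCAO replicates 1 to 5. The groups overlapped through sham replicates 6 and 7. The log2 fold change was -2.18 (SE 0.53, adjusted p = 0.0814 in limma-voom), and DESeq2 called it with an adjusted p of 0.00969, within a range of 0.00969 to 0.453 over the alternatives. Within sets 1, 2 and 3 the differences were -2.65, -2.38 and -1.19. Next came E2f3, an activator E2F, at 0.69 (SE 0.21, adjusted p = 0.168), and the kinetochore gene Nuf2, at 2.44 (SE 0.78, adjusted p = 0.193) on the log2 scale. In limma-voom the log2 fold change was -0.41 for the retinoblastoma gene Rb1 (SE 0.13, adjusted p = 0.194), and the cytokinesis regulator Ect2 had one of -0.89 (SE 0.29, adjusted p = 0.208), and Clspn, a checkpoint mediator at the fork, one of 3.07 (SE 1.19, adjusted p = 0.284).

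The second comparison set the 4 libraries of set 1 against the others in the same fit, with group as a covariate. It compares libraries and no condition of the study. Here 10 of the 20 mitosis genes tested were called lower in set 1, against 11.2% of all genes tested, among them Plk1, Ube2c, Top2a and Mki67. Without sham replicate 7, Plk1 and Ube2c were the only mitosis genes still called. With all 12 samples, 1 of the 15 S-phase genes tested was called lower, Tyms. The E2F-type helicase genes Mcm5, Mcm6 and Mcm7 were not called.

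Over the 40 genes, 12 were called lower in set 1, against 11.2% of all genes tested, and 2 were called higher (Ccne2 and Mybl2), against 4.13%. The median log2 difference of the 40 was -1.56, beside -0.17 over all genes. It was -2.49 for the mitosis genes and -0.53 for the S-phase genes. Every set 1 sample lay below every other sample for 6 of the 40 genes (Plk1, Ccnd2, Ube2c, Ccnd1, Birc5 and Tpx2), against 9.40% of all genes. With the 7 sham samples alone 13 of the 40 were called, against 13.3% of all genes, and the median log2 difference was -0.89, beside -0.17 over all genes.

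Plk1, the kinase that drives entry into mitosis, was at 1.35, 0.829 and 0.724 CPM in sham replicates 1 to 3 and at 1.28 CPM in pMCAO replicate 1. In the other 8 libraries it was between 9.36 and 27.7 CPM, with a median of 13.3 CPM. The log2 difference was -3.72 (SE 0.76, adjusted p = 0.00283). Ube2c, the ubiquitin-conjugating enzyme of the anaphase-promoting complex, was at 0.415 to 1.21 CPM in the 4 libraries and at 2.97 to 16.0 CPM in the other 8 (median 5.29), a log2 difference of -3.10 (SE 0.73, adjusted p = 0.00702). Neither gene had a group difference within the sets of more than 0.41 on the log2 scale.

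Cyclin D2 (Ccnd2), a G1 cyclin, had the smallest p of the 40 in this comparison. It was at 10.8, 9.12, 11.3 and 11.0 CPM in the 4 libraries of set 1 and at 36.4 to 85.7 CPM in the other 8 (median 58.3). The log2 difference was -2.57 (SE 0.34, adjusted p = 0.000201). Its log2 fold change of pMCAO over sham in the same fit was 0.05 (SE 0.21).

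Tpx2, which activates Aurora A on the spindle, had 2 counts in the 4 libraries together and 260 in the other 8, a ratio of 0.0471 (95% counting interval 0.00567 to 0.172). Cenpf was at 3.03, 0.207, 0 and 1.28 CPM in sham replicates 1 to 3 and pMCAO replicate 1 and at 2.54 to 16.5 CPM elsewhere (median 6.91), a log2 difference of -3.06 (SE 0.93, adjusted p = 0.0255). Of the S-phase genes, Tyms, the thymidylate synthase, had 1 count in set 1 and 435 in the other sets, a ratio of 0.0141 (95% counting interval 0.000356 to 0.0788), though pMCAO replicate 5 of set 3 also had none. These intervals cover counting error only. Cdc20 was at 0 to 1.66 CPM in set 1 and at 0.792 to 5.00 CPM elsewhere (median 2.32), with a log2 difference of -2.94 (SE 0.99, adjusted p = 0.0424).

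Mki67 and Top2a were lower in set 1 as well. Mki67 was at 11.6 to 33.5 CPM there and at 18.0 to 86.0 CPM elsewhere, a log2 difference of -1.29 (SE 0.32, adjusted p = 0.00911). Top2a was at 0.965 to 8.09 CPM and at 5.20 to 44.1 CPM, a log2 difference of -2.62 (SE 0.74, adjusted p = 0.0184). Both ranges overlapped. The remaining mitosis genes called lower were Ccna2, Birc5 and Cenpa.

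The genes called higher were 2. Ccne2, which activates Cdk2 at the G1/S transition, was at 15.7 CPM or more in the 4 libraries of set 1 (median 20.9) and at 4.04 to 16.9 CPM elsewhere, a log2 difference of 1.25 (SE 0.34, adjusted p = 0.0153). Mybl2, which encodes B-Myb, was at 2.49 to 3.86 CPM in set 1 and at 0.0754 to 2.31 CPM elsewhere, with no overlap, a log2 difference of 2.74 (SE 0.91, adjusted p = 0.0389). Exons of Ints8 overlap Ccne2 on the opposite strand, and pseudogene copies match 28.3% of the longest Mybl2 transcript. Pcna had a log2 difference of 0.49 (SE 0.24, adjusted p = 0.152).

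**Figure D4:**
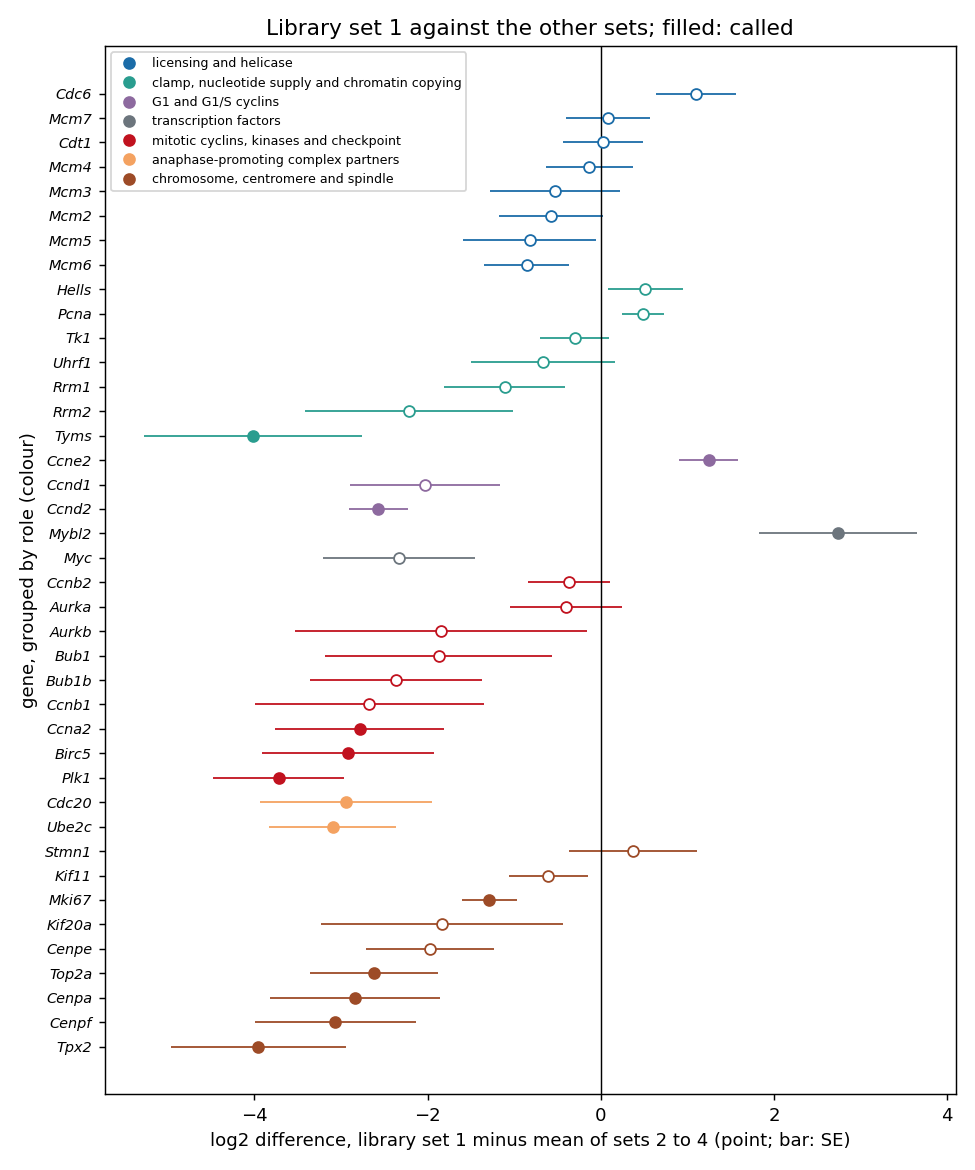
Log2 difference of library set 1 minus the mean of sets 2 to 4 for the 40 genes tested (x axis; points, with bars for the SE of the fit), with genes in rows coloured by role; filled points were called. Of the mitosis genes, 19 of 20 lie left of 0 and 10 are filled, whereas the 8 helicase and licensing genes lie between -0.86 and 1.10 with none filled. Over all genes tested, 11.2% were called lower.

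The call in this comparison leaned on single libraries. Without sham replicate 7, the only library of set 4 and the one with the highest summed level of mitosis genes, 4 of 40 genes were called in either direction (Ccnd2, Ccne2, Plk1 and Ube2c), against 12.1% of all genes, with a median log2 difference of -0.94. The members' share was thus no higher than that of all genes in this fit, in which set 4 was no longer part of the mean of the other sets. Without pMCAO replicate 1, 5 of 42 were called, against 7.66% of all genes, with a median of -1.02. Without sham replicate 1, 7 of 40 were called, against 10.4%, and without sham replicate 3, 7 of 40, against 11.7%. Without pMCAO replicate 4, 9 of 43 were called, against 13.6%. With all 12 samples the corresponding values were 14 of 40 and 15.4%. Plk1, Ccnd2 and Ube2c were called in every one of these fits.

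Markers of several cell types differed in set 1 too. In it 8 of 8 goblet cell markers, 7 of 7 enteroendocrine markers, 5 of 5 tuft cell markers tested, 5 of 9 crypt stem cell markers and 6 of 8 T lymphocyte markers were called lower, against 1 of 10 enterocyte markers called lower and 3 called higher. Over all genes tested, 11.2% were called lower in set 1 and 4.13% called higher. Other lists had fewer calls, with 1 of 6 Paneth cell markers called lower, 0 of 6 markers of B lymphocytes and plasma cells called, and 1 of 6 genes of epithelial identity called lower and 2 called higher. The summed level of the goblet cell markers was 4136 to 8119 CPM in set 1 and 20601 to 55241 CPM elsewhere, that of the crypt stem cell markers 41.8 to 55.4 CPM and 59.7 to 113 CPM, and that of the T lymphocyte markers 28.7 to 120 CPM and 101 to 617 CPM. The stem cell markers did not all go the same way. Lgr5 was at 0 to 0.0854 CPM in set 1 and at 0.520 to 8.45 CPM elsewhere. Rnf43 was at 24.1 to 32.3 CPM in set 1 and at 14.1 to 23.7 CPM elsewhere. Of the 9 stem cell markers, 5 lay below all other libraries in every set 1 library and 1, Rnf43, lay above them. The summed level of the 21 mitosis genes was 34.0 to 59.6 CPM in set 1 and 63.8 to 269 CPM elsewhere, without overlap, whereas that of the 16 S-phase genes was 67.6 to 76.9 CPM and 51.9 to 96.3 CPM. The part of cell composition, of RNA quality and of depth in these differences was not tested, and the date of collection of each set is not in the labels.

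Promoter letters were set beside the calls. Of the 12 genes called lower, 9 had a RefSeq promoter. Of these 9, 7 held a CCAAT box, 4 held TTTGAA with CCAAT (Cdc20, Ube2c, Mki67 and Top2a), and 0 held an E2F element. As 15 of the 16 mitosis promoters held CCAAT whether called or not, these counts only describe the genes shown above.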

How the data were processed

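Samples were sequenced as 100-base paired reads from 2 ng of total RNA after ribosomal RNA had been removed by cleavage. The authors aligned the reads to GRCm38 with STAR and assigned them to genes with featureCounts; the strand setting and annotation release were not given in the sources used here. The deposited counts are whole numbers per gene and were used as deposited. The deposited CPM columns, counts scaled by the authors to the total of the table, were not tested. The deposited log2 columns and p-value columns hold the authors' own comparison, and no value of them was used in a fit or printed; an earlier analysis of these data used the log2 column to place the library set boundaries described next. All 12 sample columns were matched by title, and 0 were left unmatched.

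Genes were kept with filterByExpr (minimum count 10), which left 14462 of 15855, scaled with TMM factors and fitted with limma-voom in R 4.3.3 (edgeR 4.0.16, limma 3.58.1) on group and library set over all 12 samples, as the study's methods used limma-voom with a batch term. No label gives the day of collection, and library sets stand in for it; their boundaries came from an earlier match of the library numbers to the authors' deposited fold changes, and a sample alone in its set carries no information on the group difference. A call needed a log2 fold change of 1 or more in either direction with a Benjamini-Hochberg adjusted p up to 0.05. Within-set differences are of mean log2 CPM (prior count 2). Alternatives were fits with group alone, limma-trend, DESeq2 (1.42.0), the quasi-likelihood test of edgeR, quality weights per sample, DESeq2 size factors, no mitochondrial ribosomal RNA, no filter, library set 1 left out, a replicate block and each sample left out.

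The members, lists and tests were chosen with earlier results of these data known. Genes named were 12 fixed by role, the 8 members with the smallest p between groups, the 6 with the largest difference of library set 1, and the 6 other pathway genes with the smallest p; the other members named were added after their values were seen. The scripts were tested on simulated data. Pairs of samples in a group differed by more than sampling noise (the lowest chi-square per degree of freedom was 17.7). Depth was 7418730 to 31925579 counts, and the floor of 3 counts covers counting error only. Gene positions and overlaps are from the GENCODE annotation of GRCm38, in which exons of 11 members overlap a gene on the opposite strand and of 4 a gene on the same strand.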

Additional observations from a re-analysis of the deposited data

Results flagged for a closer look

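In pMCAO replicate 1, the log2 CPM of Bub1b was -2.42, far below the other 4 pMCAO samples (1.63 ± 0.31, SD, n = 4), and that of Rb1 was 8.15, far above them (7.39 ± 0.06, SD, n = 4). Both values were picked out because the gap to the nearest sample was large against the range of the group. Of 74 groups of values examined, 2 were picked out, where chance gives about 1 in 20, or 3.7. That sample is the only pMCAO library of set 1, and Bub1b was at 0.0854 to 0.796 CPM in all 4 libraries of that set. The Bub1b value of that sample rested on 1 count, under the floor of 3 counts.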

How the results depend on the processing

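Between pMCAO and sham, 47 genes were called over the whole table, 0 with group alone or without library set 1, 21 in edgeR, 115 in DESeq2, 26 in limma-trend, 29 with sample weights, and 4 (without sham replicate 6) to 86 (without pMCAO replicate 3) with a sample left out. Of the members, 0 were called in each of these fits except in DESeq2, which called 1. The number with an unadjusted p under 0.05 was 5, and 4 to 8 with a sample left out, highest without pMCAO replicate 2. The replicate block in place of the library set term called 243 genes and 1 member, Uhrf1 (log2 fold change 3.78, adjusted p = 0.0442). Samples of the same replicate number correlated at 0.398, -0.239, -0.163, 0.163 and 0.0823 for numbers 1 to 5. Both samples of number 1 were in library set 1, whereas numbers 2 and 3 had sham in set 1 and pMCAO in set 2. Differences between library sets were not removed from these correlations, so they cannot decide whether the numbers pair the samples. The log2 fold changes of several members turned sign, those of Ccnb1 (1.21) and Aurkb (1.15) included. Tpx2 was -0.293 in edgeR, -0.363 in DESeq2 and -0.0383 in limma-trend, and Mcm5 was 0.151 without set 1. Under the block Pcna was -0.0429, Tyms 0.421 and Ube2c -0.0321. With a sample left out, Tpx2 ranged from -0.92 to 0.49, Plk1 from -0.28 to 0.33, Ube2c from -0.17 to 0.41, Mcm5 from -0.38 to 0.18, Tyms from -0.78 to 0.19, Ccnb1 from -0.16 to 1.99 and Top2a from -0.0252 to 0.686. For set 1 the members' median log2 difference of -1.56 became -1.15 in edgeR, -1.16 in DESeq2 and -0.89 in sham samples alone. With a sample left out it lay between -1.66 and -0.94, and 4 to 16 members were called in place of 14. Beside these, 1161 to 2556 of all genes tested were called in place of 2223. The causes were not tested. Low counts limit the precision, as 26 of 43 genes had a mean under 5 CPM.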

Other observations

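Markers of further cell types were compared between pMCAO and sham in the limma-voom fit with library set. Over all genes tested in this fit, 6.58% were higher and 6.17% lower at an unadjusted p under 0.05. Of 7 enteroendocrine markers 0 had an unadjusted p under 0.05 (median log2 fold change -0.19), of 6 Paneth cell markers tested 0 (median 0.25), and of 5 tuft cell markers tested 1, Pou2f3, which was lower (median -0.28). Of 6 markers of B lymphocytes and plasma cells 0 had one (median 0.48), and of 6 genes of epithelial identity 0 (median -0.05). Of 8 stromal and endothelial markers only Vim and Pecam1 had rows in the table, with a summed level of 2.31 to 13.7 CPM over all samples.

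In library set 1, the other genes of the cell cycle pathway had a median log2 difference of -0.46, with 12 of 131 called lower and 3 called higher, against 11.2% and 4.13% of all genes tested, so neither share was above that of all genes. Of the kinetochore, spindle and cytokinesis genes 4 of 35 were called lower (Bub3, Nek2, Cit and Hmmr), a share near the 11.2% of all genes, with a median log2 difference of -1.56. Of the origin recognition, polymerase and fork genes 3 of 37 were called lower (Gins1, Pole and Pole2), with a median of -0.46. Rb1 differed upwards by 0.98 on the log2 scale (SE 0.14, adjusted p = 0.000295 in limma-voom), at 284 to 464 CPM in set 1 and 160 to 259 CPM in the other libraries.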
